A study of Caenorhabditis elegans with 2 samples.

Results

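Of the 24440 peaks on the 5 autosomes in the pooled list of HLH-17 ChIP-seq peaks, 2685 lay between genes and away from every gene start. They are called far intergenic peaks here. A peak was counted if its summit fell in no annotated gene of any type and outside the stretch from 1000 bp upstream to 300 bp downstream of every gene start. This is 11.0% of the autosomal peaks (exact Clopper-Pearson 95% interval 10.6 to 11.4%), out of 30000 pooled peaks in all. The rule used position alone, and none of the peaks' measured values. The same rule gave 2870 of 24761 autosomal peaks (11.6%) in the list of replicate 1 and 2705 of 24286 (11.1%) in that of replicate 2.

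The data are chromatin immunoprecipitation and sequencing of HLH-17 in whole first-stage (L1) Caenorhabditis elegans larvae, of mixed sex, starved following bleaching, and 6 h of age. The worms came from 1 transgenic line, OP643, in which wgIs643 carries hlh-17 joined to TY1, EGFP and 3xFLAG tags together with unc-119(+), in an unc-119(tm4063) mutant background, so both replicates share the transgene, the rescue and the mutation. An antibody against GFP recovered the tagged protein from chromatin sonicated to 200 to 800 bp, and whole larvae hold few of the cells known to make HLH-17. The 2 biological replicates form 1 group with 1 shared control, so no conditions could be compared, and the spread between the 2 replicate lists is the error available. The lists hold no read numbers, so depth is unknown.

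The protein HLH-17 belongs to the basic helix-loop-helix transcription factors, is related to the vertebrate Olig proteins and is known from glia that surround sensory endings in the head. Proteins of this class bind as dimers to the E-box, CANNTG. Most regulatory sequence of the compact C. elegans genome is close to gene starts, while sequence far from any start can hold distal enhancers, unannotated transcripts, and repeats, which are denser on the chromosome arms than in the centres.

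The far intergenic peaks with the highest ranks are those in the authors' list thresholded by the irreproducible discovery rate, which compares peak ranks between replicates. There were 10 of them, which is 0.372% of far intergenic peaks (interval 0.179 to 0.684%), against 0.413% of all autosomal peaks, 101 in number. For 8 of the 10 the 101 bases centred on the summit are given, from the plus strand of the RefSeq WBcel235 sequence (the assembly that ce11 denotes), so that the kinds of sequence under the strongest peaks can be read directly. Capitals mark the inverted repeat arms at ranks 8 and 66, the exact copies of a 9-base repeat unit at rank 16, a run of 1 base at rank 60 and an E-box at ranks 72 and 110. At ranks 23 and 24 nothing is marked. Each sequence has 1 kind of mark, so the E-boxes at rank 66 and a pair of arms of 8 bases around a longer loop at rank 110 are not in capitals.
Rank 8 summit, chrV:14055172-14055272: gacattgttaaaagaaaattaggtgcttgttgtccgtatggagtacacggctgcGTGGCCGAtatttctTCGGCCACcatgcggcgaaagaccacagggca
Rank 16 summit, chrV:12510119-12510219: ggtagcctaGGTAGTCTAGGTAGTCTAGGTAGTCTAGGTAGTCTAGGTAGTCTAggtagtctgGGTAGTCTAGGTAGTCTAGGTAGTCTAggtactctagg
Rank 23 summit, chrII:2974032-2974132: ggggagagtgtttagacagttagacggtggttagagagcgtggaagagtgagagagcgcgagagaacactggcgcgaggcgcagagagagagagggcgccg
Rank 24 summit, chrII:11974802-11974902: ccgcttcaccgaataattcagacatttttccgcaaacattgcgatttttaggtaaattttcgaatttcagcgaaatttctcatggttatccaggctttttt
Rank 60 summit, chrII:2974235-2974335: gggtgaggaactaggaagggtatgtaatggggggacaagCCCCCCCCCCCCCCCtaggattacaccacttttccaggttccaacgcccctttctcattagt
Rank 66 summit, chrIV:2219570-2219670: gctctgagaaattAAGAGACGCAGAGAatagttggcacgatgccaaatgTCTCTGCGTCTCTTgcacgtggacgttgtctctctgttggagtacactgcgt
Rank 72 summit, chrIII:13635140-13635240: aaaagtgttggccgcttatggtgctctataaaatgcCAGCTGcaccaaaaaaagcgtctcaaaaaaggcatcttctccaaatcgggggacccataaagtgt
Rank 110 summit, chrIII:4195404-4195504: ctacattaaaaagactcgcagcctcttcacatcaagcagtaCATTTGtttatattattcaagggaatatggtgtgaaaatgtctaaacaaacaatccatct
The rank 8 sequence has arms of 8 bases around a loop of 7. These are shorter than the 10 bases required where inverted repeats are counted over the whole list. The rank 66 sequence has arms of 14 bases around a loop of 22. The rank 16 sequence is built of the unit GGTAGTCTA, with 8 exact copies in the window. The rank 60 sequence holds a run of 15 C. Its neighbour at rank 23 is a purine-rich stretch with 60.4% GC. The E-box that is marked reads CAGCTG at rank 72 and CATTTG, the reverse complement of CAAATG, at rank 110.

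The strongest far intergenic peak was at chrV:14055030-14055413. It was ranked 8 of 30000 in the pooled list, 8 in replicate 1 and 10 in replicate 2, and the replicate summits lay 35 and 2 bp from the pooled one. The summit is 559 bp past the end of the protein-coding gene F58D12.1 and 1513 bp upstream of the pseudogene WBGene00014778, in a gap of 3176 bp. Its 101 bp are 50.5% GC and hold no E-box. The peak at chrV:12509977-12510360 was ranked 16, with 20 in replicate 1 and 22 in replicate 2, and its summits agreed within 3 bp. It lies 476 bp past the end of T28H10.2, and 97.0% of its 101 bp is soft-masked as repeat in RefSeq. BLAST was run with the 100 bp on either side of the summit. Asked for matches of 100 bp or longer at 90% identity or more, it gave 56 elsewhere in the genome. Overlapping matches were not merged, so this counts alignments and not separate places. How reads from such copies were placed is not given in the sources used here.

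A pair of neighbouring summits on chromosome II, upstream of nhr-88, a nuclear hormone receptor gene, gave ranks 23 and 60. The peak at chrII:2973890-2974273 was ranked 25 in replicate 1, with its summit 9 bp away, but the nearest summit of replicate 2 was just over 100 bp away, beyond the limit used to call a peak found. The peak at chrII:2974093-2974476 was ranked 2847 in replicate 1. It was matched in replicate 2, at 88 bp, to the same peak, of rank 23, that lay nearest to the first summit. Replicate 1 therefore gave both summits and replicate 2 gave 1 summit between them. The peak at chrII:11974660-11975043, 1120 bp upstream of acbp-6, which encodes an acyl-CoA-binding protein, was ranked 24, with 149 in replicate 1 and 14 in replicate 2.

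The thresholded peaks on chromosomes III and IV ranked much higher in replicate 2 than in replicate 1. The peak with the inverted repeat, at chrIV:2219428-2219811, lay between the divergent genes T04C4.3 and fnip-2 and was ranked 66, with 1199 in replicate 1 and 50 in replicate 2. It holds 2 forms of the E-box, CAAATG and CACGTG, within 50 bp of its summit. The peak at chrIII:13634998-13635381, 676 bp past the end of the non-coding RNA gene T12D8.11, was ranked 72, with 2320 in replicate 1 and 59 in replicate 2. The peak at chrIII:4195262-4195645 was ranked 110, with 793 in replicate 1 and 89 in replicate 2. Its summit is 96 bp past the end of xbp-1, which encodes the transcription factor of the unfolded protein response of the endoplasmic reticulum.

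The other 2 thresholded peaks were on chromosome I. The first, from 933285 to 933668, was ranked 37 in the pooled list and 27 in both replicates, and all 3 summits fell on the same base. It lies 5006 bp upstream of nas-30, an astacin-type metalloprotease gene, in a gap of 11566 bp. Its summit sequence gave 103 other matches in the same search, again counted as alignments. The second, from 11629950 to 11630333, was ranked 114, with 272 in replicate 1 and 177 in replicate 2, and lies 210 bp past the end of W04G5.3. Of the 10 peaks, 9 were found in both replicates, and the estimated q of the authors was between 0.0476 and 0.918 for those ranked 8 to 37 and between 2.29 and 3.11 for the other 5. An estimate over 1 is not a probability, and these values are given as deposited.

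**Figure D1:**
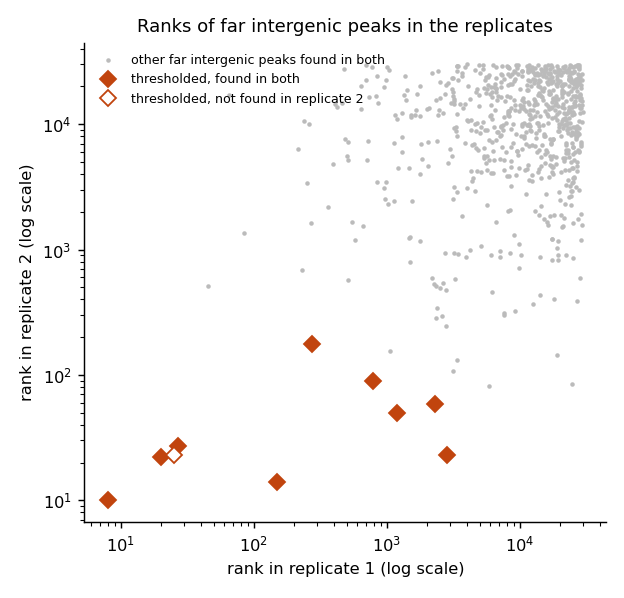
Ranks of far intergenic peaks in the relaxed lists of replicate 1 (x axis) and replicate 2 (y axis), both on log scales, where rank 1 is the strongest. Grey points are the far intergenic peaks found in both replicates, filled diamonds the 9 thresholded peaks found in both, and the open diamond the thresholded peak at pooled rank 23. The thresholded peaks sit at ranks 10 to 177 in replicate 2 but 8 to 2847 in replicate 1, and most grey points crowd into the weak corner of both lists.

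Of the next 10 far intergenic peaks, 4 lay in gaps of over 10000 bp. These 10, the next by pooled rank that were found in both replicates, were ranked 132 to 243. A pair of them lay in the same gap of 17383 bp, between the divergent genes vab-2, which encodes an ephrin, and glct-6, a glucuronyltransferase-related gene. Their intervals were chrIV:3777725-3778108, ranked 168, and chrIV:3772272-3772655, ranked 180. The first was ranked 2789 in replicate 1 and 245 in replicate 2, and the second 513 and 575. They lay 6293 bp upstream of glct-6 and 5638 bp upstream of vab-2, held CACGTG and CAGATG within 50 bp of their summits, and had no masked bases in the 101 bp around them. The first of the 10, on chromosome III from 10580115 to 10580498, lay 4887 bp upstream of Y45F3A.4. It was ranked 132, with 3152 in replicate 1 and 107 in replicate 2, and held an inverted repeat with arms of 10 bases.

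Of the other 7, 3 lay within 500 bp of the end of a gene. The peak ranked 140 lay 16 bp past the end of cutl-22, a cuticlin-like gene, and held CACGTG, with rank 5909 in replicate 1 and 82 in replicate 2. That ranked 137 lay 1094 bp upstream of the carbonic anhydrase gene cah-6 and held a run of 17 C or G. That ranked 226 lay 361 bp past the end of ida-1, which encodes a dense-core vesicle protein. The peak ranked 219 was 4461 bp upstream of the globin gene glb-11. That ranked 231, between Y48G8AR.3 and the death-associated kinase gene dapk-1, was 80.2% masked and had 3 other matches in the genome. Ranks of the 10 in replicate 1 ran between 85 and 19073, and those in replicate 2 between 82 and 1352. In 7 of the 10 the rank was better in replicate 2.

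The peaks farthest from any gene start lay in gaps of 11739 to 24685 bp. Among those found in both replicates and ranked up to 5000, the farthest lay 10934 bp upstream of nhr-61, another nuclear hormone receptor gene, in the 24685 bp between it and the cadherin gene cdh-7, at chrII:14829285-14829668. It was ranked 796, with 13976 in replicate 1 and 9698 in replicate 2. The next was at chrV:1249940-1250323, 10210 bp upstream of C39F7.1 and ranked 2733. It was followed by a peak 9462 bp upstream of ttx-1, the homeobox gene of the AFD thermosensory neurons, at chrV:20073446-20073829 and ranked 3817. The other 2, 7972 bp downstream of the start of Y39E4B.5 and 7897 bp downstream of that of the piRNA gene 21ur-12039, were ranked 1008 and 735. The better of the 2 replicate ranks was 506 for the peak near Y39E4B.5 and 546 for that near 21ur-12039, and it was 3153, 4332 and 9698 for those near ttx-1, C39F7.1 and nhr-61.

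Far intergenic sequence had fewer peaks per base than the genome as a whole. The sequence that meets the rule covers 12.2 of 82.6 Mb of the autosomes, or 14.7%, and is called eligible sequence here. Far intergenic peaks numbered 221 per Mb of it, with 236 and 222 in replicates 1 and 2. Gene-start windows held 287 per Mb, exons outside them 447, introns 228 and all autosomal sequence 296. In both replicates the density of far intergenic peaks was below that of start windows (289 and 283) and of exons (441 and 438). It did not differ from that of introns beyond the spread of the replicates (236 and 233).

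**Figure D2:**
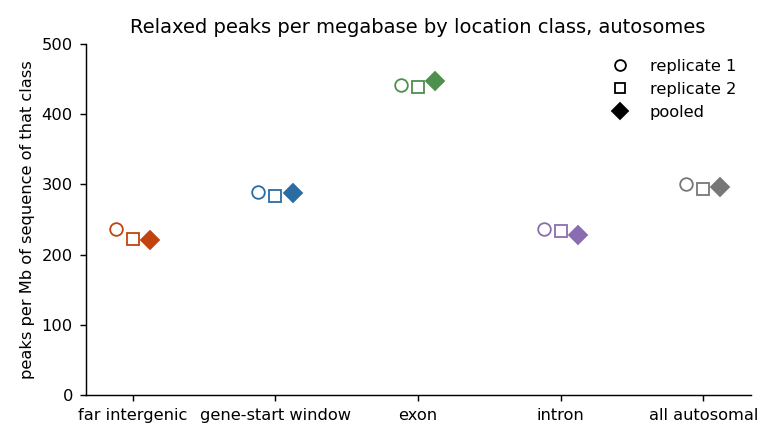
Peaks per Mb of autosomal sequence (y axis) in each location class (x axis), for replicate 1 (circles), replicate 2 (squares) and the pooled list (filled diamonds). Far intergenic sequence sits near 221 to 236 per Mb, level with introns, and exons at 438 to 447.

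Far intergenic peaks were spread over the whole range of strength. Their median rank by the deposited signal was 15244 (quartiles 7959 and 23032, best 8, last 29992), against 14994 for all autosomal peaks, and 15899 and 15494 in replicates 1 and 2. Their signal ran from 56.2 to 302 with a median of 70.0, against a median of 70.3 for all autosomal peaks, on a scale that the authors' files do not state. Among the 1000 strongest pooled peaks were 90 far intergenic peaks, or 3.35% of them (interval 2.7 to 4.1%), against 3.5% of all autosomal peaks. Of these 90, 9 (10%) were also among the 1000 strongest in both replicate lists, against 118 of all 855 autosomal peaks in the top 1000 (13.8%). The share of far intergenic peaks varied little down the list, between 9.85% of the autosomal peaks ranked up to 5000 after the first 1000 and 11.2% of those beyond rank 15000.

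Far intergenic peaks were found again in the replicates at about the rate of all autosomal peaks. The criterion was a summit in the replicate's relaxed list no more than 100 bp away. Both replicates held 746 of the 2685, or 27.8% (interval 26.1 to 29.5%), against 27.1% of all autosomal peaks. Replicate 1 held 1311, or 48.8%, against 47.7% of all autosomal peaks, and replicate 2 held 1826, or 68.0%, against 69.2%. Replicate 2 thus held more than replicate 1 both of far intergenic peaks and of all autosomal peaks. Found in replicate 1 alone were 565 far intergenic peaks (21.0%), in replicate 2 alone 1080 (40.2%), and in neither 294 (10.9%), against 20.5, 42.3 and 10.2% of the other autosomal peaks.

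Recovery fell steeply with pooled rank. Of the 80 far intergenic peaks that follow the thresholded ones up to rank 1000, 70 were found in both replicates (87.5%, interval 78.2 to 93.8%), against 81.0% of all autosomal peaks in that range. Up to rank 5000 it was 220 of 324 (67.9%), against 64.2%, and up to rank 15000 it was 351 of 902 (38.9%), against 36.6%. Of the 1369 beyond rank 15000, 96 were found in both (7.01%), against 7.08% of all autosomal peaks. The interval for far intergenic peaks includes the value of all autosomal peaks in each of these 4 ranges. Where a peak was found in both replicates, its 2 ranks were only weakly related. Spearman's rho was 0.145 across 746 far intergenic peaks and 0.174 across 5886 other peaks. Only peaks that reached the pooled list and both replicate lists enter these values. They therefore do not measure the agreement of the replicates as a whole. The peaks share the libraries and the control.

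**Figure D3:**
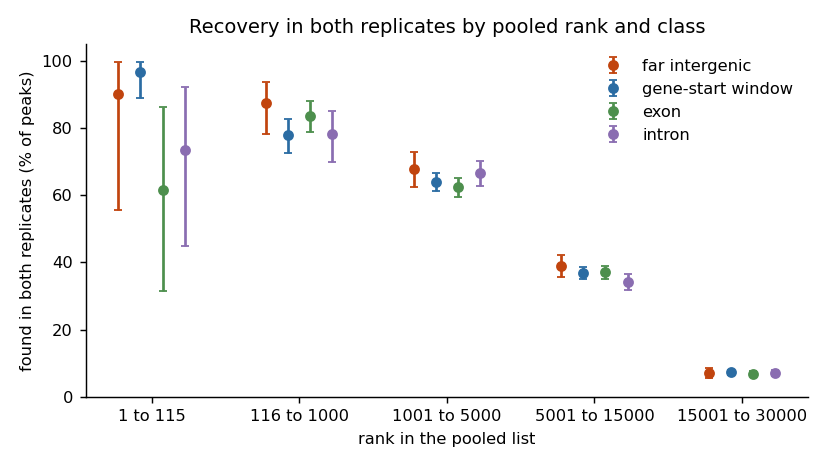
Percent of pooled peaks found in both replicates (y axis) by bin of pooled rank (x axis) and location class, with exact 95% intervals as bars. In the last 2 bins the far intergenic peaks reach 38.9 and 7.01%, and the 4 classes lie within a few percentage points of one another.

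Distances to gene starts were close to those of the sequence available, while gene ends were slightly nearer. The median far intergenic summit was 1941 bp from the nearest gene start (quartiles 1316 and 3098, range 301 to 19100), against 1953 bp for every 50th base of eligible sequence, 243463 bases in all. In replicates 1 and 2 it was 1959 and 1946 bp. The nearest gene end was at a median of 1596 bp (range 1 to 18794), with 1664 and 1615 bp in the replicates, against 1723 bp for eligible bases. Of all far intergenic summits 24.1% lay within 500 bp of a gene end, against 21.3% of eligible bases, and in 77.8%, against 76.1%, the summit lay beyond the end and not on the side of the gene.

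Density differed little over most distances. Between 250 and 500 bp from a gene end there were 266 far intergenic peaks per Mb, with 257 and 270 in replicates 1 and 2, and within 250 bp 238, with 251 and 239. From 500 to 10000 bp the density was between 208 and 218, with 204 to 239 in the replicates. By distance to a gene start it was between 219 and 230 per Mb in every bin up to 10000 bp, and the 56 pooled peaks nearer than 500 bp had 228. The replicate lists held 63 and 77 peaks in that bin, or 256 and 313 per Mb. Beyond 10000 bp from any gene start, 9 peaks in 0.117 Mb gave 76.8 per Mb, with 145 and 102 in the replicates.

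**Figure D4:**
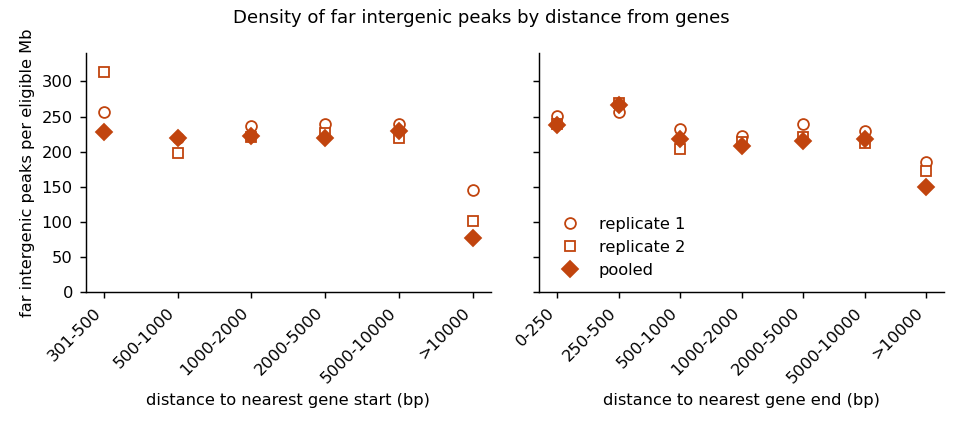
Far intergenic peaks per Mb of eligible sequence (y axis) by distance in bp to the nearest gene start (left) and nearest gene end (right), for replicate 1 (circles), replicate 2 (squares) and the pooled list (diamonds). The bin of 250 to 500 bp from a gene end reaches 266 per Mb in the pooled list, and the bins beyond 10000 bp are the lowest.

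The genes on either side were arranged as in eligible sequence at large. Tandem genes flanked 53.0% of far intergenic peaks, convergent genes 23.8% and divergent genes 23.1%, against 52.3, 23.4 and 24.2% of eligible bases. The nearest gene start belonged to a protein-coding gene for 62.6% of far intergenic peaks, against 64.8% of eligible bases, and to a non-coding RNA gene of the ncRNA type for 22.3%, against 18.5%. The share for ncRNA genes was 21.6 and 23.1% in replicates 1 and 2. Pseudogenes made up 6.22%, against 7.39%, and piRNA genes 4.69%, against 5.19%.

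Densities differed between chromosomes and between chromosome arms and centres. Chromosome V held 770 far intergenic peaks, or 247 per Mb of eligible sequence, and chromosome I 425, or 198 per Mb. Chromosome II had 208, III 211 and IV 229 per Mb. All autosomal peaks numbered 325 per Mb of chromosome V, 269 of I, 295 of II, 295 of III and 287 of IV, so V was highest and I lowest among them too. Chromosome V was highest in both replicates, at 260 and 246, while chromosome I was lowest in replicate 2, at 190, but not in replicate 1, where it had 234 and chromosome II 218. Each chromosome was cut into 3 parts of equal length. In the outer parts there were 233 per Mb and in the middle parts 196, with 251 and 205 in replicate 1 and 230 and 206 in replicate 2. The outer parts thus held 70.4% of far intergenic peaks (interval 68.6 to 72.1%), against 66.7% of eligible bases and 66.3% of all autosomal peaks. Intron peaks had a higher share there, at 73.7% (interval 72.4 to 74.9%).

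That share was higher in the top 1000 than in the whole list, but beyond the interval in replicate 1 alone. Of the 90 far intergenic peaks in the top 1000, 72 lay in the outer parts (80.0%, interval 70.2 to 87.7%), against 70.4% in the whole list. In replicate 1 it was 87.8% of 98 (interval 79.6 to 93.5%), against 71.1%. In replicate 2 it was 74.2% of 89 (interval 63.8 to 82.9%), against 69.2%. Among all autosomal peaks in the top 1000 it was 70.2%, with 71.7 and 68.6% in the replicates. Of the 10 thresholded far intergenic peaks, 9 lay in the outer parts, against 61.4% of the 101 thresholded autosomal peaks, and the repeat at rank 16 lay in a middle part.

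Far intergenic summits were richer in GC than the eligible sequence. The median GC content of the 101 bp at their summits was 38.6% (quartiles 33.7 and 44.6%), the same in both replicates, against 33.7% for eligible bases and 40.6% for all autosomal peaks. The number of peaks per Mb of eligible sequence climbed with each step in GC content, from 79.2 below 30% GC through 178, 270 and 369 to 492 at 45% or more. It was 90, 190, 290, 385 and 517 in replicate 1, and 91.5, 198, 278, 362 and 418 in replicate 2. Recovery in both replicates moved the same way, from 18.3% below 30% GC to 31.9% at 45% or more. The share of masked sequence at the summits had a median of 24.8%, below the 40.6% of eligible bases but above the 17.8% of all autosomal peaks. Of far intergenic summits 2.83% were masked throughout, against 9.74% of eligible bases and 1.49% of all autosomal peaks. Exon summits had a median GC content of 42.6% and start-window summits 39.6%, while intron summits had 38.6%, as far intergenic summits did. Whether the efficiency of sequencing or the mapping of reads has a part in the relation to GC was not tested.

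E-boxes were less frequent at far intergenic summits than at autosomal peaks as a whole. The motif was searched as CANNTG, which is its own reverse complement, so both strands are read at once. Of the 2685 peaks, 886 (33.0%, interval 31.2 to 34.8%) had at least 1 within 50 bp of the summit, against 38.3% of all autosomal peaks and 28.6% of eligible bases. In replicates 1 and 2 it was 32.9 and 32.3%. Exon summits had 45.8%, start-window summits 37.4% and intron summits 31.0%. Within bins of GC content the far intergenic peaks had 26.7, 33.1, 32.6, 36.6 and 33.3% from the lowest bin to the highest, against 22.3, 29.7, 32.2, 34.1 and 33.1% of eligible bases, and the interval for the peaks included the value of eligible bases in all 5 bins. In the top 1000 the share was 32.2% of 90, against 37.9% of all autosomal peaks there. An E-box lay at 3 of the 10 thresholded far intergenic peaks. No share is given for all thresholded autosomal peaks, so this count is a description.

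Single forms of the E-box were all rare. CAAATG, with its reverse complement, was the commonest at far intergenic summits, at 7.56%, against 9.88% of all autosomal peaks and 7.97% of eligible bases. CACCTG was at 4.25%, with 3.87 and 3.33% in replicates 1 and 2, against 3.61% of autosomal peaks and 2.27% of eligible bases. CACGTG was at 2.27%, with 2.54 and 2.29%, against 2.66% and 1.48%. CAGCTG was at 1.9%, with 1.74 and 1.85%, against 2.75% and 1.4%. The single forms were not compared within bins of GC content, so whether GC has a part in these differences was not tested. A match here describes letters in the window and not a bound site.

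**Figure D5:**
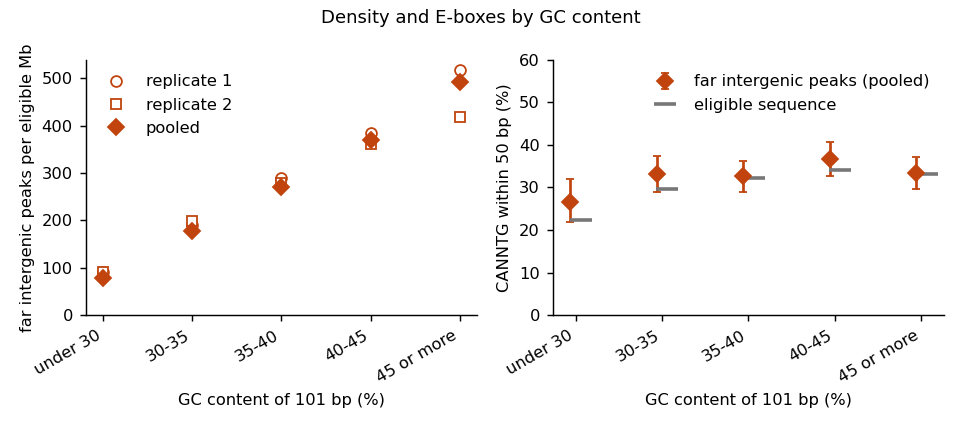
Left: far intergenic peaks per Mb of eligible sequence (y axis) by GC content of the 101 bp around a base (x axis, %), for replicate 1 (circles), replicate 2 (squares) and the pooled list (diamonds), from 79.2 in the lowest bin to 492 in the highest of the pooled list. Right: percent of far intergenic peaks (diamonds with exact 95% intervals) and of eligible bases (grey lines) with a CANNTG within 50 bp in the same bins, where each grey line falls within the interval of its diamond.

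Repeated sequence and runs of C or G were more common than at autosomal peaks as a whole. Another genome copy was found for 231 far intergenic peaks (8.6%, interval 7.57 to 9.73%), against 5.5% of all autosomal peaks, with 8.01 and 8.35% in replicates 1 and 2. Intron peaks had 7.9%, start-window peaks 5.55% and exon peaks 2.89%. Copies were not searched for in eligible sequence, whose median masked share of 40.6% is above the 24.8% of far intergenic summits. Whether copies are more or less common at the peaks than in that sequence is therefore unknown. A run of at least 10 C or 10 G lay within 50 bp of 32 far intergenic summits (1.19%, interval 0.817 to 1.68%), with 1.43 and 0.887% in the replicates, against 0.528% of all autosomal peaks and 0.333% of eligible bases. Intron peaks had 0.8% (interval 0.572 to 1.09%), which overlaps the interval of far intergenic peaks. In the top 1000 such runs were at 5 of 90 (5.56%, interval 1.83 to 12.5%), against 1.64% of all autosomal peaks in the top 1000. In replicate 1 it was 4.08% (interval 1.12 to 10.1%), against 1.4% of all autosomal peaks in its top 1000. In replicate 2 it was 3.37% (interval 0.701 to 9.54%), against 1.18%. Both replicate intervals thus include the share of all autosomal peaks. The 5 in the pooled list lay near nhr-88, cah-6, Y45F3A.5, tra-1, the zinc finger gene of sex determination, and the piRNA gene 21ur-11902.

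Inverted repeats were no more frequent than in eligible sequence. Perfect inverted repeats with arms of at least 10 bases were at 108 far intergenic summits (4.02%, interval 3.31 to 4.84%), with 3.62 and 3.48% in the replicates, against 2.33% of all autosomal peaks but 4.54% of 12174 eligible positions. Introns had 4.84%. The word ACTCCTCTC, read on either strand, was chosen as a common word of 9 bases at thresholded summits. In the pooled list it was within 50 bp of 2 far intergenic summits (0.0745%, interval 0.00902 to 0.269%), against 0.155% of all autosomal peaks, which is within the interval. The word was at 13 thresholded peaks, and none of them was far intergenic. Thresholded peaks are among all autosomal peaks, so the choice of word raises the share of the latter. The comparison therefore cannot show whether far intergenic peaks differ in this word.

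Far intergenic peaks were spread over many gaps. They fell in 1732 of the 7201 gaps between genes that hold eligible sequence, and 1183 of these gaps had 1 peak. In 38 gaps there were 5 or more. The median distance from a far intergenic summit to the next was 2825 bp, and 651 peaks (24.2%) lay within 1000 bp of another. No such values are given for other peaks or for eligible bases, so these are a description and do not measure clustering. The 90 peaks of the top 1000 came from 82 gaps.

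The fullest gap held 12 far intergenic peaks in 23432 bp of chromosome V between C39F7.6 and C39F7.1, with 9 in each replicate list, and the best was ranked 1893. The gap before ser-6, an octopamine receptor gene, held 10, with 7 and 8 in replicates 1 and 2. That between egl-2, which encodes a potassium channel, and F16B3.2 held 9, with 8 in each. That between nob-1, a posterior Hox gene, and linc-161 held 9, with 6 and 8. There were 6 gaps with 7 peaks, and the one of them with the best-ranked peak, between egl-4, which encodes a cyclic GMP-dependent protein kinase, and F55A8.6, had 7 in the pooled list, with 11 in replicate 1 and 7 in replicate 2. In these 5 named gaps no peak was thresholded, and the best ranks were 1893, 1344, 611, 4108 and 603 in the order given. These gaps span 14434 to 23432 bp and were chosen for their counts, so the counts are a description.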

How the data were processed

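Peaks of HLH-17 ChIP-seq in whole L1 larvae were deposited on ce11 as relaxed lists for replicates 1 and 2 and for both pooled, and as a list thresholded by the irreproducible discovery rate, per the deposited notes. Neither aligner nor peak caller is named in the sources used here. Each peak carries the authors' signal value, never negative and of unstated scale, used here only to rank peaks within a list, with no tied values in the pooled list. It also carries the authors' deposited −log10 of an estimated q (a log10 scale, values below 0 included) and a summit position as a deposited offset from the peak start, which is neither a log nor a score. Pooled calls contain both replicates, so they are not independent of them. Depth is unknown, and intervals treat peaks as independent.

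Genes came from Ensembl release 115 for WBcel235 and sequence, with its soft-masking, from RefSeq. Summits were put in the first class that applied: gene-start window, exon, intron, or far intergenic. Eligible sequence was sampled at every 50th base. Scripts ran in Python 3.11.15 (pandas 2.3.3, scipy 1.17.1), with copies found by BLAST 2.17.0. The steps for location classes, nearest distances, inverted repeats and runs were tested on simulated data, and the other steps were not. No tests were made, since there is 1 group, and most shares stand beside those of all autosomal peaks or, for position and sequence, of eligible sequence. The regions named are every thresholded far intergenic peak, the next 10 found in both replicates, and the 5 farthest from a gene start among those found in both and ranked up to 5000. The members, lists and rules were chosen with earlier results of these data known. The outer and middle parts of chromosomes, the GC bins, the C and G runs, the inverted repeats, the 9-base word and the gaps and genes named with them were chosen after values were seen. X-linked peaks were not used here. The alternatives tried are described with their values in the section on how results depend on the processing.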

Additional observations from a re-analysis of the deposited data

How the results depend on the processing

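The number of far intergenic peaks depended on the rule: it was 1664 with an upstream limit of 2000 bp, 3631 with 500 bp, 4528 with protein-coding genes alone, and 2160 when the whole peak interval had to lie outside, against 2685 as reported. With protein-coding genes alone the median distances were 2619 bp to a gene start and 2894 bp to a gene end, against 2604 and 2912 bp for eligible bases. Recovery in both replicates was 18.1% with summits within 50 bp, 36.1% within 200 bp, 43.1% by overlap of intervals and 89.1% in either replicate, against 18.3, 37.0, 44.6 and 89.7% of all autosomal peaks. It was 23.3% for an estimated q of at most 1 and 87.8% in the top 1000, against 22.1 and 81.9%. The limit on q kept 2459 of 2685 far intergenic peaks but left out strong ones, such as those ranked 60 to 114. The estimate does not follow rank, so this limit does not select the stronger peaks. Requiring only 1 of the replicates gave 48.8% to 68.0%. Splits chosen after seeing the data gave 24.0, 25.8, 31.1, 30 and 27.8% on chromosomes I to V, against 27.5, 26.3, 28.4, 27.5 and 26.4% of all autosomal peaks. In the outer and middle parts of chromosomes it was 28.5 and 26.0%, against 28.2 and 25.1%. One-to-one matching left it at 27.8%, and leaving out peaks with other genome copies gave 28.3%. Of the 10 thresholded peaks, 5 had an estimated q of at most 1, and 9 to 12 peaks meeting the rule stood at the same ranks of a single replicate list. The median rank was 15494 to 15899 in the replicate lists. E-boxes were at 17.8% of summits within 25 bp and 54.2% within 100 bp, against 21.1 and 60.8% of all autosomal peaks and 15.3 and 48.3% of eligible bases. No paired analysis was possible because the replicates form 1 group. Depth could not be assessed, and with 2 replicates no spread beyond their difference can be given.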
